A study of Mus musculus with 6 samples.

Results

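The genes described here are the keratins, cadherins, claudins and proteins of epithelial cell junctions, measured in the mouse macrophage line RAW264.7. They were chosen by gene name among the protein-coding rows of the count table: every gene called Krt, Cdh, Cldn, Pkp, Dsg, Dsc or Tjp followed by a digit, together with Ocln, Dsp, Jup, Epcam, Cgn, F11r and Marveld2. This gave 132 of the 54532 genes in the table, or of its 22046 protein-coding genes. There were 6 libraries of messenger RNA. In 3 of them, replicates A, B and C, the wild-type RAW264.7 cells had been cocultured for 48 h with TTJ cells before they were sorted by flow cytometry. The other 3 were made from sorted wild-type RAW264.7 cells that had grown alone. TTJ cells lack Tsc2, a brake on growth signalling through mTORC1, and come from an angiomyolipoma of mice that model tuberous sclerosis complex. The sources used here do not give the sorting gate. No label calls the replicates separate cultures, and p-values therefore reflect the spread of these libraries alone, which could be technical. The coculture is meant to show how Tsc2-null cells affect macrophage polarization.

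Keratins are the intermediate filament proteins of epithelial cells. A keratin filament is built from a type I and a type II chain, and simple epithelia such as kidney tubules use mainly Krt8 with Krt18. Cadherins hold neighbouring cells together through calcium-dependent contacts, at adherens junctions and, as desmogleins and desmocollins, at desmosomes, where plakophilins, plakoglobin (Jup) and desmoplakin (Dsp) tie them to keratin. Claudins and occludin seal the space between epithelial cells at tight junctions, with the zonula occludens scaffold proteins and cingulin beneath the membrane. Macrophages are not joined into sheets and are not known for keratin filaments, although some junction proteins are made by leukocytes as well.

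The total counts ran from 14329487 to 16976782 in the cocultured libraries and from 14621832 to 17358280 in the lone ones. All 10 macrophage markers were at or above 1 CPM (counts scaled to library size) in lone cells, and their summed level was 11878 to 12126 CPM in coculture, against 11437 to 11504 CPM alone. Lyz2 made up most of both sums, at a mean of 7266 CPM in coculture and 6768 CPM alone. Of these 10 markers 4 rose and 4 fell by the test used throughout, edgeR's quasi-likelihood test on all 12972 genes that passed a filter on low counts, with Benjamini-Hochberg adjusted p under 0.05. Of all tested genes with at least 1 CPM alone, as these markers had, 16.8% were called higher and 17.2% lower, and of all genes tested 21.7% and 15.2%. Of 15 renal and simple epithelial markers that are not junction genes, 10 were tested and all 10 rose. Spp1 and Lcn2 were above 1 CPM in lone macrophages too, and the other 13 summed to 51.8 to 58.3 CPM in coculture and 0.403 to 1.51 CPM alone. Pax2, a transcription factor of the developing and adult kidney, had 162, 210 and 171 counts in coculture and none alone, whereas Hnf4a and Lhx1 had no count in any library. The mesenchymal markers summed to 42.3 to 44.0 CPM in coculture and 1.79 to 1.93 CPM alone. Col5a1 and Cav1 made up most of the cocultured sum and were the 2 of 3 tested that rose, with Col3a1, Pdgfra, Myl9 and Thy1 at 0. The endothelial markers summed to 4.34 to 7.46 CPM in coculture and 4.20 to 5.57 CPM alone, and the tested members Vwf and Egfl7 were not called, with Emcn and Tie1 at 0. These marker levels stand beside every junction gene below, and their part in the junction results was not tested. In bulk RNA of this kind, a smaller number of cells of another type and less RNA per such cell cannot be told apart.

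Most of the 132 genes had no count in lone macrophages. None was found in the 3 lone libraries for 110 of them (83.3%), against 38.6% of all protein-coding genes. Counts appeared in coculture for 39 of these 110, and 71 genes had no count in any library (53.8%, against 29.8% of all protein-coding genes). Of the 110 genes, 19 (17.3%) reached at least 10 counts over the cocultured libraries, whereas 7.2% of all protein-coding genes with no count alone did so. The 71 were 17 type II and 18 type I keratins, 12 cadherins, 7 desmogleins and desmocollins, 16 claudins and Epcam. The 39 were the 16 genes named below that passed a filter on low counts and 23 others with few counts, namely Krt6a, Krt87, Krt88, Krt13, Krt14, Krt16, Krt17, Krt19, Krt20, Krt27, Krt42, Cdh2, Cdh11, Cdh19, Dsg3, Pkp1, Cldn2, Cldn6, Cldn14, Cldn19, Cldn34a, Cldn34b1 and Cldn34c1. The reverse was rare: Cldn7, Cdh26 and Krt23 had 1 count and Cldn23 had 3 counts alone, with 0 in coculture. A count of 0 over the lone group allows a level of up to 0.0618 CPM (3 counts over the group, counting error only).

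**Figure D1:**
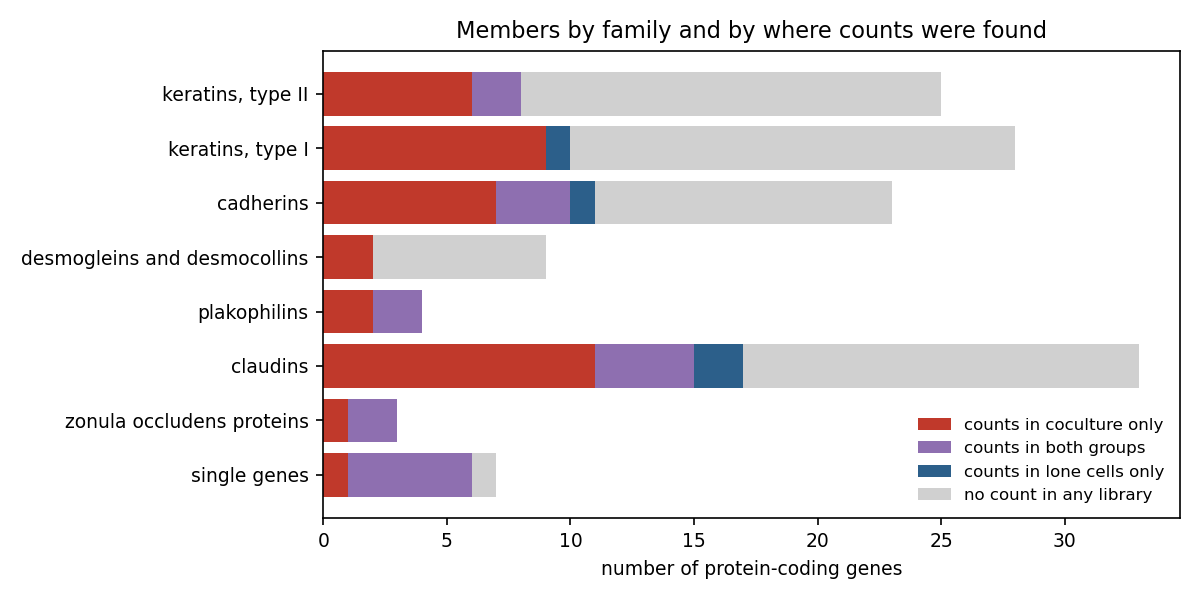
Number of protein-coding genes (x axis) in each family (y axis), split by whether counts were found in coculture only, in both groups, in lone cells only or in no library. Single genes are Ocln, Dsp, Jup, Epcam, Cgn, F11r and Marveld2. Grey dominates the keratins, where 35 of 53 genes had no count in any library, while every plakophilin and zonula occludens gene had counts.

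Of the 132 genes, 30 passed the filter on low counts. In coculture 27 of them were called higher (21.7% of all genes tested were) and 1 lower (15.2% of all genes tested). The count of 27 rests largely on the filter, because 16 of the 30 had no count alone, could pass only through coculture and so had to be higher. Those 16 were Krt8, Krt18, Krt80, Krt4, Cdh16, Cdh1, Cdh3, Cdh17, Dsg2, Pkp3, Cldn4, Cldn3, Cldn1, Cldn9, Tjp1 and Ocln. Their lower bounds, set against 3 counts over the lone group, ran from 15.2-fold to 1987-fold, and their adjusted p from 6.84e-22 to 7.37e-06. Krt7 and Marveld2 had 1 count alone. A further 6 had more than 3 counts but under 1 CPM alone (F11r, Dsp, Cgn, Jup, Cdh24 and Cdh23), and 6 were at 1 CPM or more alone, among them Cldn11, Pkp4, Pkp2, Cldn12 and Tjp3. The median log2 change of the 30 was 8.53 as fitted, beside 0.00 over all genes tested. It was 6.27 when the 16 genes were put at their lower bounds and Krt7 and Marveld2 at their count ratios.

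**Figure D2:**
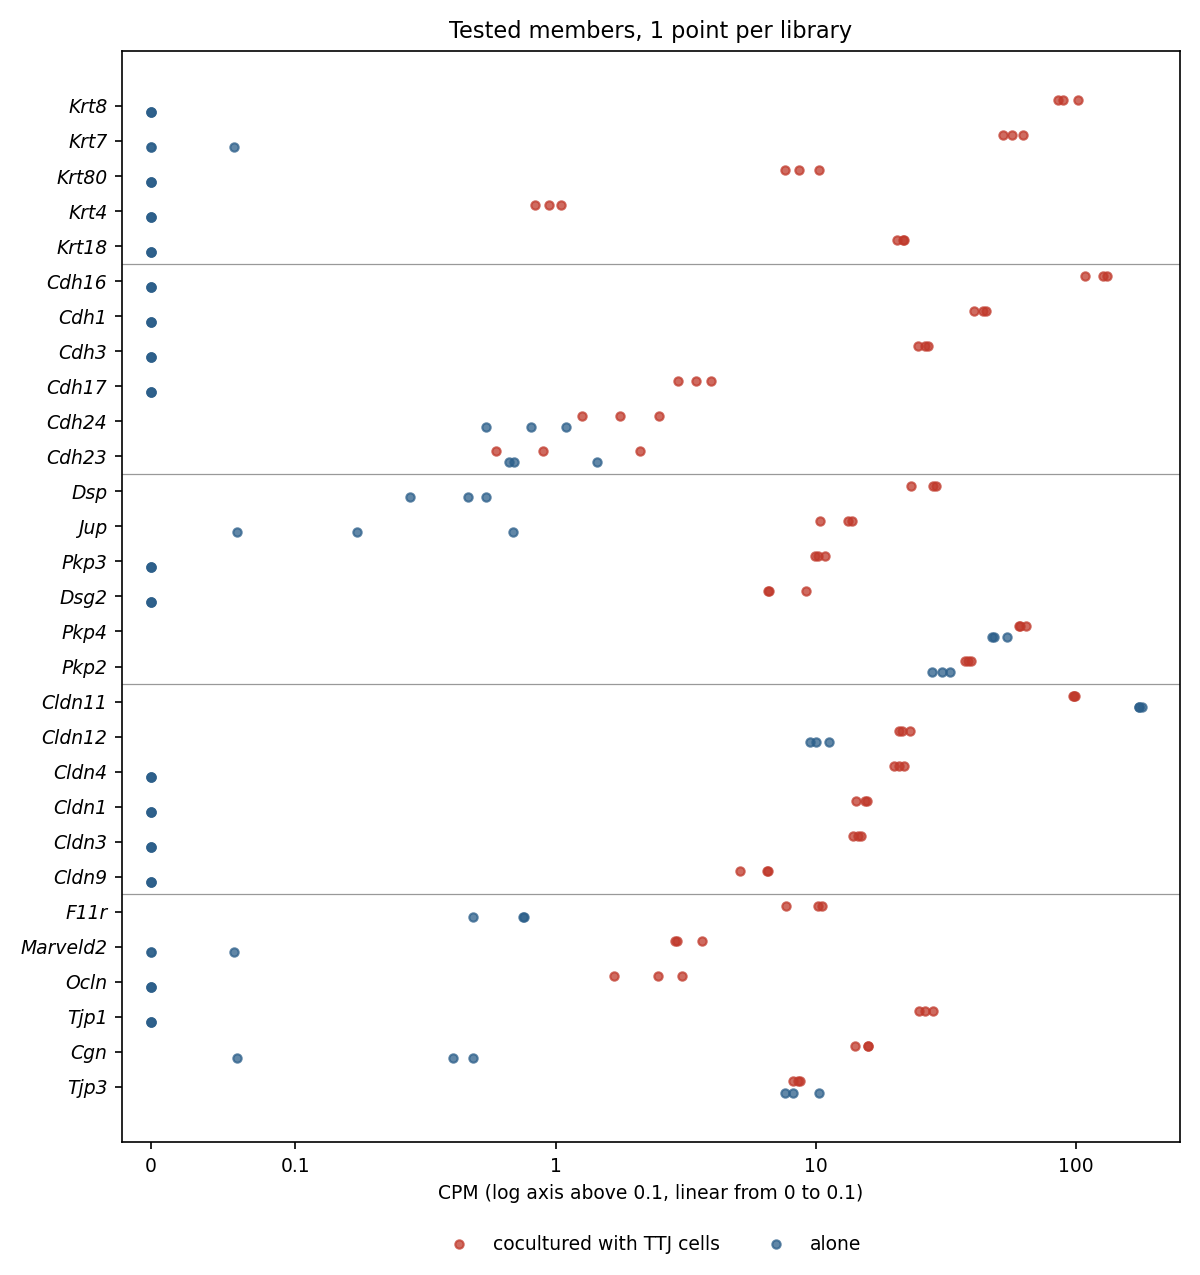
CPM of tested junction genes (y axis) in every library (x axis, logarithmic above 0.1 CPM and linear from 0 to 0.1), with 3 cocultured libraries in red above 3 lone libraries in blue. Lines part keratins, cadherins, desmosomal and plakophilin genes, claudins, and other tight junction genes. Overlying blue points at 0 are genes with no count alone, and the groups overlap for Cdh23 and Tjp3.

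The 250 bases before the annotated start of 6 genes are shown because they set keratins and claudins with no or 1 count alone beside Cldn11, the claudin with the most RNA in lone macrophages. They are RefSeq sequences of build GRCm38.p6, the assembly of mm10, and 14 of the 23 genes called higher from under 1 CPM alone had an entry. The capitals mark the E-box CAGGTG on either strand, a motif bound by the Snail and Zeb repressors of epithelial genes.
Krt8: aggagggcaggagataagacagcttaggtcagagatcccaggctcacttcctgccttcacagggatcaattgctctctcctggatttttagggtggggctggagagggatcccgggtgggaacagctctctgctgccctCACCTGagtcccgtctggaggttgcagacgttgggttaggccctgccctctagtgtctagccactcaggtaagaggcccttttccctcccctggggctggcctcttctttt
Krt18: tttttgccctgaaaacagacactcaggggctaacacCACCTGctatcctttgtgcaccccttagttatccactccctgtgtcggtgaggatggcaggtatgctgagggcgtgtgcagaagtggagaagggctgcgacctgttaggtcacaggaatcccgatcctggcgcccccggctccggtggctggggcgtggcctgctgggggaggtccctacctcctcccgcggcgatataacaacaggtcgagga
Krt7: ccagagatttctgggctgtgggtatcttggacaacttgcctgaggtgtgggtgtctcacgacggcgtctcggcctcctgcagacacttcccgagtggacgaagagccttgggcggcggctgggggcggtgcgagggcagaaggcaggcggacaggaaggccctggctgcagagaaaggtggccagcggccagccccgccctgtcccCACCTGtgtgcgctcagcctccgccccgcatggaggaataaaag
Cldn3: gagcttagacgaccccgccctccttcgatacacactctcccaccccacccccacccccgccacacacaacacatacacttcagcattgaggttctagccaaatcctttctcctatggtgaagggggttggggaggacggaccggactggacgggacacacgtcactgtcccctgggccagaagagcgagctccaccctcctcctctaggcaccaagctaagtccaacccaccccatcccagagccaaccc
Cldn4: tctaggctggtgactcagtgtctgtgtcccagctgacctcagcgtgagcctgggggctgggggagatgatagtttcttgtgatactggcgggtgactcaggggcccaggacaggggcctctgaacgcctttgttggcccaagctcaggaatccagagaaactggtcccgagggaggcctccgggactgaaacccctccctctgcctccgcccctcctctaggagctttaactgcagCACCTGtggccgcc
Cldn11: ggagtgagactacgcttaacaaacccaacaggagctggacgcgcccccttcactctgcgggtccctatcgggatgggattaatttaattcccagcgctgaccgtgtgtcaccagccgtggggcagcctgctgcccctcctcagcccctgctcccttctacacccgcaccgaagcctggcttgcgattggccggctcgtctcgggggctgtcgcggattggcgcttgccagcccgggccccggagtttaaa
They lie at chr15:102004343-102004592 on the minus strand for Krt8, chr15:102027966-102028215 on the plus strand for Krt18 and chr15:101412153-101412402 on the plus strand for Krt7. The claudin windows are chr5:134985964-134986213 on the plus strand for Cldn3, chr5:134946935-134947184 on the minus strand for Cldn4 and chr3:31149670-31149919 on the plus strand for Cldn11. The RefSeq start can lie inside the gene as the count table spans it, so the Krt7 window lies wholly and the Krt8 and Krt18 windows partly within those spans. The E-box was found once in Krt8, Krt18, Krt7 and Cldn4 and not in Cldn3 or Cldn11. Over the 16 windows of the 14 genes it was in 6, those of Cldn4, F11r, Krt18, Krt7, Krt8 and Ocln, and it was in 17.2% of all 32851 distinct windows of that length. The GC box GGGCGG was in 14 of the 16 and in 32.7% of all windows, the Grainyhead-like motif AACNGGTT in 1 of the 16 (Cgn) and in 1.79% of all, and the PU.1 motif GAGGAAGT in 0 of the 16 and 2.44% of all, each sought on both strands. CAGGTG and AACNGGTT share the letters GGT, so their matches could overlap, and a match describes letters only.

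Keratins of simple epithelia were present in coculture. Of 25 type II keratins 4 were tested and all 4 were higher, and of 28 type I keratins 1 was tested and was higher. Of all genes tested 21.7% were higher, but the tested keratins had 0 or 1 count alone and could pass the filter only through coculture. Krt8, the type II keratin of simple epithelia, had 85.4, 101 and 88.7 CPM in the cocultured libraries A, B and C, against 0 counts in all 3 lone libraries, and was at least 1488-fold higher. Its type I partner Krt18 had 21.8, 21.7 and 20.5 CPM in coculture and 0 counts alone, at least 345-fold higher. Krt7, a type II keratin of ducts and other simple epithelia, had 52.4, 62.4 and 56.9 CPM in coculture, against 0, 0 and 0.0576 CPM alone. All cocultured libraries stood far above the lone ones for these genes, and library B was the highest for Krt8 and Krt7 but not for Krt18. The single lone count of Krt7 gives a ratio of 2786 (exact 95% interval 500 to 110090), and its fitted log2 change was 10.98 (SE 0.244, adjusted p = 2.14e-21), or 12.81 without alone replicate C, which held that count. Krt80, a type II keratin of differentiating epithelia, had 10.3, 8.62 and 7.58 CPM in coculture and 0 counts alone, at least 142-fold higher. An antisense gene that overlaps it, Gm35853, had 21 counts in coculture and 0 alone, and without the strand setting reads of the pair cannot be told apart. Krt4, of stratified mucosa, averaged 0.940 ± 0.110 CPM in coculture (SD, n = 3) from 44 counts and had 0 counts alone, at least 15.2-fold higher.

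Per length, Krt8 was the most abundant keratin in coculture, at 46.8 ± 4.33 FPKM (SD, n = 3), followed by Krt18 at 14.8 ± 0.500 and Krt7 at 8.11 ± 0.723 FPKM. The FPKM of Krt7 rests on a gene length of 7049 bases that joins all its exons. On the 4094 bases of its principal GENCODE transcript it was at 14.0 ± 1.26, a level that differed from that of Krt18 on the same scale (14.8 ± 0.467) by less than the spread between libraries. Krt8 counts were 3.92, 4.67 and 4.33 times those of Krt18 in libraries A, B and C. The summed FPKM of type II chains was 3.40, 4.03 and 3.81 times that of type I chains, and 3.85, 4.54 and 4.30 times with principal transcript lengths, so type II messages were in excess in every cocultured library.

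Position set the type I keratins apart. Krt18 lies on chromosome 15 at the end of the type II genes, 23697 bases from Krt8, whereas the other 27 type I genes lie on chromosome 11. These 27 together had 30 counts in coculture and 1 alone, and 9 of them had any count. Krt20, an intestinal and urothelial keratin, led with 6, 3 and 2 counts in coculture. Krt17 had 6 counts, Krt14, of basal epidermis, had 4 and Krt19, of simple and ductal epithelia, had 3, all with 0 alone. Among untested type II keratins, Krt87 had 8 counts and Krt88 had 3 in coculture and 0 alone, and Krt2, of the epidermis, had 1 in coculture and 2 alone. The remaining keratins with a count, Krt13, Krt16, Krt27, Krt42 and Krt6a, had 1 or 2 counts in coculture and 0 alone, apart from Krt23 named above.

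Of 23 cadherins 6 were tested, and 5 were called higher in coculture and 0 lower (21.7% and 15.2% of all genes tested). Cdh16, Cdh1, Cdh3 and Cdh17 had 0 counts alone and could pass the filter only through coculture. Cdh16, Cdh1 and Cdh3 reached more than 10 CPM in coculture, whereas Cdh6, the K-cadherin of kidney tubules, had no count in any library. Cdh16, the kidney-specific cadherin (ENSMUSG00000031881, chromosome 8, 104601911 to 104624396), had 108, 131 and 127 CPM in coculture and 0 counts alone, at least 1987-fold higher. Cdh1, which encodes E-cadherin, had 44.0, 44.9 and 40.6 CPM in coculture and 0 counts alone, at least 697-fold higher. Cdh3, or P-cadherin, had 26.96, 26.23 and 24.68 CPM in coculture and 0 counts alone, at least 419-fold higher. The 3 genes are on chromosome 8, where Cdh3 and Cdh1 are 46053 bases apart. Cdh17, the liver-intestine cadherin, had 2.94, 3.96 and 3.47 CPM in coculture and 0 counts alone, at least 56.2-fold higher. Per length the order in coculture was Cdh16 at 32.2 ± 3.26, Cdh1 at 9.42 ± 0.503, Cdh3 at 5.91 ± 0.265 and Cdh17 at 0.771 ± 0.114 FPKM (SD, n = 3), with gaps larger than the spread between libraries.

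Other cadherins were low. Cdh24, a cadherin of the type II subfamily, had 1.26, 2.49 and 1.76 CPM in coculture, against 1.10, 0.540 and 0.807 CPM alone. The lowest cocultured library was just above the highest lone one, and the 2.28-fold rise (log2 1.19, SE 0.373, adjusted p = 0.0141) was no longer called when the B library of either group was left out. The adjusted p was then 0.122 without coculture replicate B and 0.084 without alone replicate B, and the log2 change ran from 0.91 to 1.44 over the 6 fits that each left out a library. Cdh23, a component of the tip links of hair cells, averaged 1.19 ± 0.800 CPM in coculture and 0.932 ± 0.444 CPM alone (SD, n = 3 each), with overlapping libraries and a log2 change of 0.35 (SE 0.450, adjusted p = 0.595). Its locus overlaps Vsir on the other strand, a gene with 4312 counts in coculture and 3704 alone. N-cadherin, Cdh2, the cadherin of mesenchymal and neural cells, had 1, 4 and 7 counts in coculture and 0 alone. Cdh5, the endothelial VE-cadherin, had 21 counts in coculture and 4 alone, a ratio of 5.43 (exact 95% interval 1.83 to 21.8). Cdh19 had 5 counts and Cdh11 had 2 in coculture with 0 alone, and Cdh4, the retinal R-cadherin, had 0 in all libraries.

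**Figure D3:**
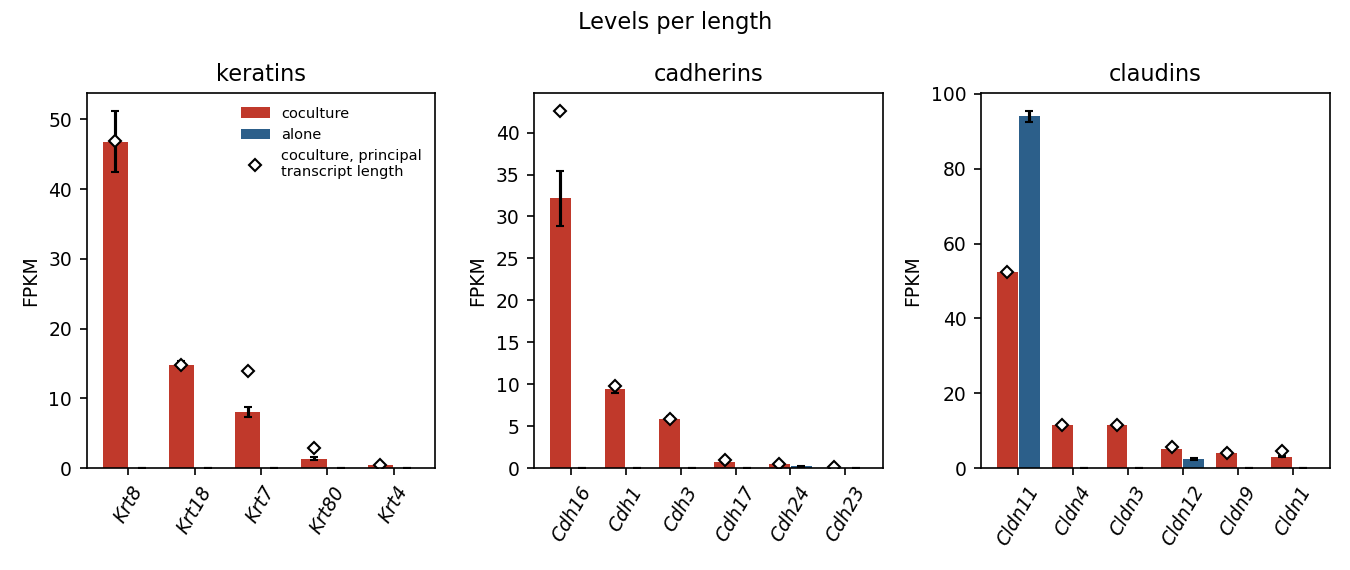
Mean FPKM (y axis, from 0) of keratins, cadherins and claudins in cocultured (red, left) and lone (blue, right) cells, with bars for the SD of 3 libraries. Open diamonds give the cocultured level on the length of the principal transcript. Krt8 and Cdh16 lead their families in coculture only, while Cldn11 leads the claudins in both groups and was lower in coculture.

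Among desmosomal genes, the plaque proteins Pkp3, Dsp and Jup averaged 2.85 ± 0.126, 2.77 ± 0.325 and 1.94 ± 0.286 FPKM in coculture, above the 0.895 ± 0.181 FPKM of the cadherin Dsg2 (SD, n = 3). On principal transcript lengths the order changed, with Jup at 3.90 ± 0.567, Pkp3 at 3.62 ± 0.168, Dsp at 2.79 ± 0.322 and Dsg2 at 1.29 ± 0.260. Dsg2, the desmoglein of simple epithelia, had 6.58, 9.13 and 6.52 CPM in coculture and 0 counts alone, at least 120-fold higher. The other 8 desmogleins and desmocollins together had 5 counts in coculture, all of Dsg3 in library C, and 0 alone. Dsc2, the desmocollin that usually accompanies Dsg2 in simple epithelia, was among those with 0 in all libraries, as were Dsc1, Dsc3, Dsg4 and the Dsg1 genes. Dsp, desmoplakin, had 28.1, 29.0 and 23.2 CPM in coculture, against 0.275, 0.540 and 0.461 CPM alone, and rose 60.8-fold (log2 5.93, SE 0.202, adjusted p = 7.13e-18). Jup, plakoglobin, which serves desmosomes and adherens junctions, had 13.8, 13.3 and 10.4 CPM in coculture, against 0.688, 0.0600 and 0.173 CPM alone. It rose 42.1-fold (log2 5.39, SE 0.317, adjusted p = 3.39e-13), on 14 counts alone of which 10 were in replicate A, and the log2 change was 6.64 without that library. Pkp3, an epithelial plakophilin, had 10.2, 9.89 and 10.8 CPM in coculture and 0 counts alone, at least 167-fold higher. Pkp1, of stratified epithelia, had 4 counts in coculture and 0 alone.

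Among claudins the pattern divided. Of 33 genes 6 were tested, and 5 rose or were higher and 1 fell (21.7% and 15.2% of all genes tested). Cldn4, Cldn3, Cldn1 and Cldn9 had 0 counts alone and could pass the filter only through coculture. Cldn4, common in the collecting duct, had 20.9, 21.8 and 20.0 CPM in coculture and 0 counts alone, at least 338-fold higher. Cldn3, which lies 39279 bases from Cldn4 on chromosome 5, had 13.9, 14.9 and 14.5 CPM in coculture and 0 counts alone, at least 234-fold higher. Cldn1, a barrier-forming claudin, had 15.5, 15.7 and 14.2 CPM in coculture and 0 counts alone, at least 244-fold higher. These genes varied little between cocultured libraries, with SDs of 0.538 to 0.894 CPM. Cldn9, known from the inner ear, had 5.11, 6.51 and 6.52 CPM in coculture and 0 counts alone, at least 98.6-fold higher. Cldn6, whose gene is 137 bases from that of Cldn9 on chromosome 17, had 4 counts in coculture and 0 alone. Per length Cldn4 (11.5 ± 0.504 FPKM) and Cldn3 (11.5 ± 0.441 FPKM) did not differ beyond their spread in coculture (SD, n = 3), and both lay above Cldn9 at 4.19 ± 0.564 and Cldn1 at 3.12 ± 0.166 FPKM. On principal transcript lengths Cldn1 was at 4.66 ± 0.239 and Cldn9 at 4.19 ± 0.574, a gap within the spread.

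Lone macrophages held RNA of a claudin themselves. Cldn11, the claudin of myelin and Sertoli cells (ENSMUSG00000037625, chromosome 3, 31149920 to 31164324), had the highest FPKM of all 132 genes in both groups. It had 97.9, 97.1 and 99.1 CPM in coculture, against 179, 175 and 175 CPM alone, and fell (1.80-fold lower, log2 -0.84, SE 0.0460, adjusted p = 7.30e-14). The groups lay far apart relative to their spread, and per length the level was 52.3 ± 0.493 FPKM in coculture and 93.9 ± 1.36 FPKM alone (SD, n = 3 each). Cldn12, an atypical claudin found in many tissues, had 20.8, 22.9 and 21.5 CPM in coculture, against 9.49, 10.0 and 11.2 CPM alone, and rose 2.11-fold (log2 1.08, SE 0.110, adjusted p = 1.16e-08). Claudins too low to test included Cldn15, with 7 counts in coculture and 21 alone (ratio 0.345, exact 95% interval 0.124 to 0.842), and Cldn20, with 6 and 17 (ratio 0.365, interval 0.118 to 0.970). Cldn20 overlaps Tfb1m on the other strand, which had 716 counts in coculture and 698 alone. Cldn34c1 had 10 counts, Cldn2, a pore-forming claudin of the proximal tubule, had 7 and Cldn19, of the thick ascending limb, had 3 in coculture, all with 0 alone. Cldn14, Cldn34a and Cldn34b1 had 1 count each in coculture. Epcam, an epithelial adhesion molecule that binds claudins, had no count in any library.

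Other tight junction membrane proteins were low but present. F11r, which encodes JAM-A and is made by leukocytes as well as epithelia, had 10.6, 10.2 and 7.70 CPM in coculture, against 0.757, 0.480 and 0.749 CPM alone, and rose 14.2-fold (log2 3.83, SE 0.248, adjusted p = 2.46e-12). Ocln, occludin, had 1.68, 3.06 and 2.47 CPM in coculture and 0 counts alone, at least 39.3-fold higher. Marveld2, or tricellulin, the protein of corners where 3 cells meet, had 3.64, 2.94 and 2.88 CPM in coculture, against 0, 0 and 0.0576 CPM alone. Its ratio was 152 (exact 95% interval 26.9 to 6045), and the fitted log2 change of 6.79 became 8.62 without alone replicate C. Every cocultured library was above every lone library for these genes, and library C was the lowest for F11r.

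The cytoplasmic scaffolds differed from gene to gene. Tjp1, which encodes ZO-1, had 26.3, 28.2 and 24.9 CPM in coculture and 0 counts alone, at least 427-fold higher. Tjp3, or ZO-3, averaged 8.46 ± 0.263 CPM in coculture and 8.69 ± 1.43 CPM alone (SD, n = 3 each), with overlapping libraries, a log2 change of -0.03 (SE 0.147, adjusted p = 0.890) and 0.10 without alone replicate A. The locus of Tjp3 overlaps Apba3 on the other strand, which had 1545 counts in coculture and 1680 alone. Cgn, cingulin, had 14.1, 15.8 and 15.9 CPM in coculture, against 0.481, 0.0600 and 0.403 CPM alone, and rose 48.2-fold (log2 5.59, SE 0.264, adjusted p = 4.37e-15). Lone macrophages therefore held counts of Tjp3 but none of Tjp1.

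Plakophilins were likewise divided. Pkp4, a plakophilin of adherens junctions and the cytoplasm, had 64.2, 60.6 and 60.9 CPM in coculture, against 54.1, 47.5 and 48.3 CPM alone, and rose 1.24-fold (log2 0.31, SE 0.0648, adjusted p = 0.000410). Pkp2, of desmosomes in heart and simple epithelia, had 37.3, 38.5 and 39.3 CPM in coculture, against 27.9, 30.5 and 32.8 CPM alone, and rose 1.26-fold (log2 0.33, SE 0.0769, adjusted p = 0.00116). For both genes the groups came close without overlap. In the same cocultured libraries the 16 tested junction genes that were absent alone summed to 401, 448 and 414 CPM, and their part in the rises of Pkp4 and Pkp2 was not tested.

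**Figure D4:**
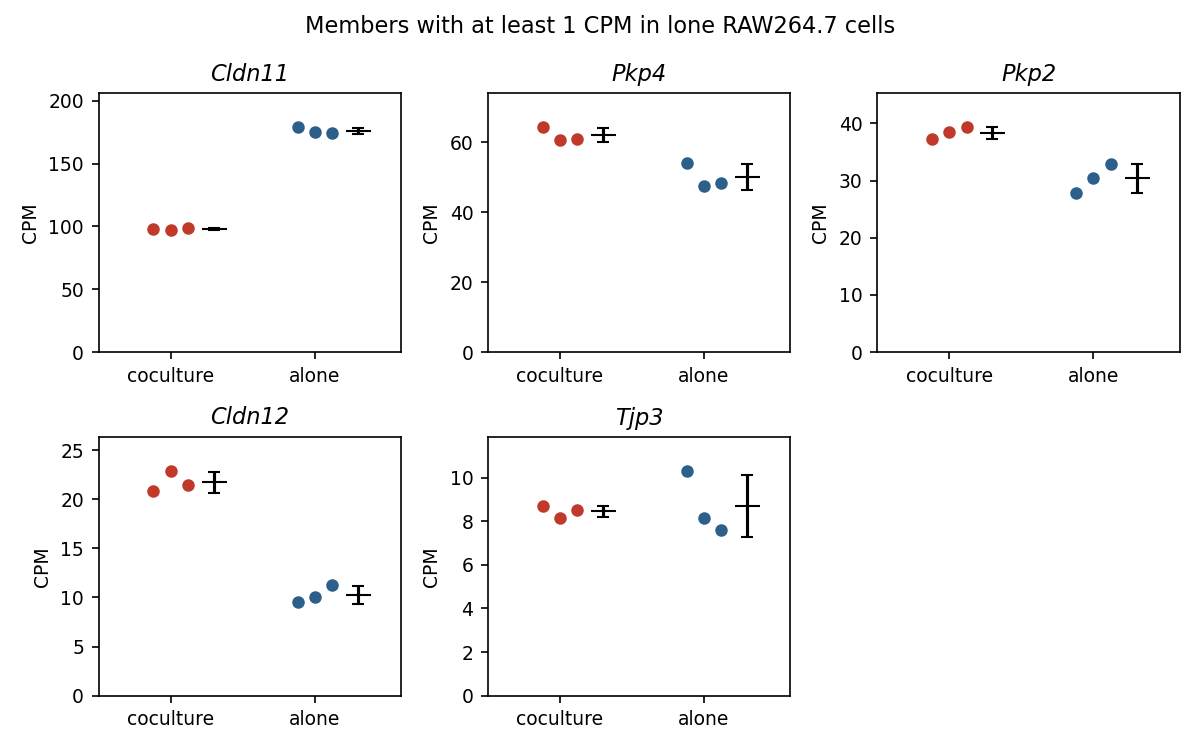
CPM (y axes, from 0) of Cldn11, Pkp4, Pkp2, Cldn12 and Tjp3, which were at 1 CPM or more in lone cells, in cocultured (left, red) and lone (right, blue) libraries, with 1 point per library and the mean ± SD beside them. Cldn11 was lower in coculture, Pkp4, Pkp2 and Cldn12 were higher, and Tjp3 overlapped.

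Taking only the 6 genes at 1 CPM or more alone, 4 were higher and 1 was lower in coculture. Of all 11458 tested genes at this level in lone cells, 16.8% were higher and 17.2% were lower. The median log2 change of the 6 was 0.32, beside -0.02 over all such genes.

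The spread between cocultured libraries differed among the 16 tested genes that were absent alone. For the 10 with at least 10 CPM in coculture, the SD was 3.33% to 10.0% of the mean. For the other 6 it was 11.7% (Krt4), 13.4% (Cldn9), 14.7% (Cdh17), 15.5% (Krt80), 20.1% (Dsg2) and 28.8% (Ocln) of the mean. Of the 16 tested, 10 were highest in library B, 4 in A and 2 in C, and 8 were lowest in C, 6 in A and 2 in B. The 110 junction genes with no count alone together took 0.0401%, 0.0451% and 0.0417% of the counts of libraries A, B and C.

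Genes of the same structures outside the named families were measured as well. Of 14 adherens junction plaque genes 10 were tested, and 6 rose and 1 fell, with a median log2 change of 0.44 beside 0.00 over all genes, of which 21.7% rose and 15.2% fell. Lmo7 was among the 6, had 0 counts alone and could pass the filter only through coculture. Lmo7, an afadin-binding protein, reached 4.77 ± 0.623 CPM in coculture with 0 counts alone (at least 77.2-fold higher), and Plekha7, of the apical adherens belt, was at 5.83 ± 0.775 CPM in coculture and 0.256 ± 0.149 CPM alone (22.8-fold higher). Nectin2, an immunoglobulin-like adhesion molecule, rose 2.16-fold, to 18.3 ± 2.33 CPM in coculture, against 8.48 ± 0.769 CPM alone (SD, n = 3 each). Restricted to the 8 genes at 1 CPM or more in lone cells, 4 were higher, 1 was lower and the median was 0.23, where 16.8% of all genes at that level were higher and 17.2% lower. The same shares and medians over all genes apply to the lists that follow.

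Of 28 further tight junction and polarity genes, 14 rose and 0 fell among 23 tested (21.7% and 15.2% of all genes), with a median of 0.93. Cgnl1, Pard3, Patj, Shroom2 and Mpdz were 5 of the 14, had 0 counts alone and could pass the filter only through coculture. Cgnl1, paracingulin, reached 35.2 ± 2.54 CPM in coculture with 0 counts alone (at least 569-fold higher), the polarity scaffold Pard3 9.24 ± 1.36 CPM (at least 150-fold) and Patj, of the Crumbs complex, 6.72 ± 1.17 CPM (at least 109-fold). Restricted to the 12 at 1 CPM or more in lone cells, 5 were higher (16.8% of all genes at that level) and the median was 0.05. Of 12 filament linkers and other filament genes, 7 rose and 1 fell among 11 tested (21.7% and 15.2% of all genes), with a median of 0.59. Perp, Eppk1, Ppl and Evpl were among the 7, had 0 to 3 counts alone and could pass the filter only through coculture. Ppl, periplakin, was at 11.8 ± 1.09 CPM in coculture on 1 lone count (ratio 573, exact 95% interval 102 to 22671), and its fitted log2 change of 8.69 became 10.58 without alone replicate A, which held that count. Perp, a desmosomal membrane protein, reached 7.54 ± 0.0443 CPM and Eppk1, epiplakin, 3.04 ± 0.514 CPM in coculture, both with 0 counts alone (at least 122-fold and 49.6-fold higher). Restricted to the 7 at 1 CPM or more in lone cells, 3 were higher, 1 was lower and the median was -0.05.

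Connexins of gap junctions were tested for 3 of 15 genes, and all 3 were higher (21.7% of all genes were; median 6.78). Gja1, the connexin of heart and many other tissues, rose 5.50-fold, to 9.08 ± 0.128 CPM in coculture, against 1.63 ± 0.308 CPM alone. Epithelial adhesion and basal surface genes were tested for 13 of 16 genes and all 13 rose or were higher (21.7% of all genes; median 5.20), including the 4 with at least 1 CPM alone (median 1.79). Itga3, an integrin chain that binds laminin, reached 99.9 ± 10.0 CPM with 0 counts alone (at least 1618-fold higher). Spint2, a protease inhibitor, was at 42.0 ± 3.76 CPM on 2 lone counts (ratio 1022, interval 282 to 8443), and Bcam, a laminin receptor, at 18.1 ± 1.56 CPM on 1 (ratio 877, interval 157 to 34681). The fitted log2 change of Bcam, 9.31, became 11.14 without alone replicate C, which held its count.

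Among 21 regulators of epithelial junction genes, 11 were tested, 9 were higher and 1 lower (21.7% and 15.2% of all genes; median 8.22). Pax2 was at 11.6 ± 1.69 CPM and Esrp1, an epithelial splicing factor, at 4.30 ± 0.560 CPM in coculture, both with 0 counts alone (at least 187-fold and 70.0-fold higher). Both are also among the renal and epithelial markers above. Zeb2, a repressor of Cdh1, and Grhl1, of the Grainyhead-like family, were the regulators at 1 CPM or more in lone cells. Zeb2 fell, at 123 ± 9.91 CPM in coculture and 156 ± 7.32 CPM alone (adjusted p = 1.65e-05). Grhl1 was at 2.71 ± 0.607 CPM in coculture and 3.15 ± 0.689 CPM alone (adjusted p = 0.545, SD, n = 3 each). Zeb1 went the opposite way to Zeb2, at 0.914 ± 0.365 CPM in coculture with 0 counts alone (at least 14.5-fold higher). It could pass the filter only through coculture. Of the Snail genes, which did not pass it, Snai1 had 20, 6 and 9 counts in coculture, against 4, 3 and 11 alone. Snai2 had 8 in coculture and 3 alone. The part of these repressors in the junction results was not tested. The lists of connexins, regulators and epithelial surface genes passed the filter mainly through coculture, so their counts and medians were largely fixed by it.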

How the data were processed

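Libraries were made from poly-A RNA with random hexamers, per the labels' protocols. The authors deposited raw counts per gene and FPKM values, per the file headers. Each FPKM matched the count scaled by gene length and total, up to a constant for each library between 0.996 and 1.004. The build mm10 and the tools edgeR 3.22.5, DESeq2 1.20.0, featureCounts 1.5.0-p3 and HISAT2 2.0.5 appear, without roles, in the submitters' processing notes. The sources used here do not give the strand setting, so reads of overlapping genes could be counted for either. No row lacked a gene (0) and 0 columns belonged to other samples.

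Counts were tested with edgeR 4.0.16 in R 4.3.3 (quasi-likelihood F test, TMM scaling, filterByExpr by group, group term only), with Benjamini-Hochberg adjusted p under 0.05 over 12972 genes. The SE was obtained by dividing the size of the log2 change by the root of the F statistic. CPM used TMM-scaled library sizes. Genes with 0 counts alone were set to 3 counts over the lone group for lower bounds, and ratios of low counts have exact conditional binomial 95% intervals, covering counting error only. Principal transcript lengths came from GENCODE M21 (GRCm38). Replicates were compared by chi-square per degree of freedom, 2.98 to 4.58 within groups, so none was a repeat of another. The procedure was tested on simulated data in which only genes expressed in lone cells were changed, so genes with 0 counts alone were not covered. The members and gene lists were chosen with earlier results of these data known. Genes that passed the filter are named, apart from results not reported here, with each library's value where it was called and reached 1 CPM; companion lists give up to 3 called genes with the largest change, and macrophage, mesenchymal and endothelial lists are summarised by their sums. Alternatives were DESeq2 size factors, upper quartile scaling, TMM from genes with at least 10 CPM alone, omitting the filter, a filter of 1 CPM in 3 or more libraries, a table of protein-coding genes, DESeq2 1.42.0 (Wald), voom with limma, limma with a trend on log2(FPKM + 1) and log2(FPKM + 0.1) (limma 3.58.1), the replicate letter as a block, and each library left out.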

Additional observations from a re-analysis of the deposited data

How the results depend on the processing

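The 28 calls among the 30 junction genes tested kept their direction under every alternative that tested them, and all but that of Cdh24 stayed past the threshold. For the 16 called genes with 0 counts alone no alternative could turn the direction, so their agreement was fixed in advance. When each library was left out, the genes called higher numbered 26 to 27 and those called lower 1 to 1. The replicate block gave 27 higher and 1 lower. Same-lettered deviations correlated weakly (0.00576 to 0.0448, beside -0.0372 to 0.0125 for different letters). Each library except coculture replicate A correlated best with its own letter. Correlations this weak do not settle whether the letters pair the libraries. Without a filter 30 of 61 junction genes tested were called higher, adding Krt20, Cdh2 and Cldn34c1. These rested on 11, 12 and 10 counts in coculture and 0 alone (edgeR adjusted p = 0.0356, 0.0292 and 0.0486). With a filter of at least 1 CPM in at least 3 libraries, 26 of 28 tested were called higher. Leaving out each library moved the log2 change of Tjp3 between -0.12 and 0.10, with the sign turned without alone replicate A, and that of Cdh23 between -0.31 and 0.79, turned without coculture replicate A. Neither was called. Genes with 0 counts alone have fitted changes that depend on the prior count, and their 0 counts still allow a level of up to 0.0618 CPM alone.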
